A study of Mus musculus with 10 samples.

Results

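The genes described here are 10 genes of intercalated cells, the acid- and base-secreting cells of the kidney's connecting tubule and collecting duct. They were chosen by name, as genes of these cells, with earlier results of these data known. They are 4 subunits of the proton pump (Atp6v0a4, Atp6v1b1, Atp6v1g3 and Atp6v0d2), 3 anion exchangers (Slc4a1, Slc4a9 and Slc26a4), the transcription factor Foxi1, the channel Aqp6 and the ammonia transporter Rhcg. Each matched 1 Ensembl ID among the 46517 in the count tables, and all 10 passed the filter on low counts that left 17823 genes for testing. The study expressed variants of human APOL1 in mouse podocytes, the epithelial cells of the glomerular filter, according to its title, and measured polyadenylated RNA of whole kidneys by sequencing. The kidneys were frozen in liquid nitrogen and taken through RNA extraction together, per the labels. By genotype label the groups are G1-APOL1 and G2-APOL1, both called risk alleles in the labels, with 2 libraries each, and wild type (single mutant) and Control, with 3 libraries each. The sources used here do not say what "single mutant" refers to, which promoter drove the transgene, or the strain, age and sex of the mice, and the human APOL1 transcript was not analysed here. Nothing in the labels ties each library to its own animal, so p-values below measure the spread between these libraries, which may be technical.

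Intercalated cells carry a vacuolar-type proton pump built of a membrane sector, through which protons pass, and a peripheral sector that hydrolyses ATP. Several of its subunits exist in a widely expressed form and in a form enriched in intercalated cells, among them the 4 listed here. Acid-secreting (type A) cells place the pump in the apical membrane and return bicarbonate to the blood through the basolateral exchanger AE1, the product of Slc4a1. Base-secreting cells (type B and non-A, non-B) carry the apical exchanger pendrin, the product of Slc26a4, and type B cells also the basolateral transporter AE4, the product of Slc4a9. Foxi1 is the forkhead transcription factor that mouse intercalated cells need to form and to express several of these genes. Loss of ATP6V1B1, ATP6V0A4, SLC4A1 or FOXI1 function is a known cause of distal renal tubular acidosis in humans.

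The libraries held 27596391 to 34815153 counts, so that 3 counts, the limit that a count of 0 allows, correspond to 0.0862 to 0.109 CPM (counts per 1000000). This is on unscaled totals, whereas the CPM values below use totals scaled by factors of 0.8804 to 1.1699. This limit covers counting error only. Kidney-defining transcripts were present in every library, with Slc34a1 of the proximal tubule at 1249.9 CPM or more and Aqp2 of the collecting duct at 127 CPM or more, and each of the 10 genes had at least 268 counts in every library. Values are CPM on library sizes scaled by TMM (trimmed mean of M values). "Rose" and "fell" are used of genes with an adjusted p under 0.05 (edgeR quasi-likelihood with Benjamini-Hochberg correction over all 17823 genes), and fold changes are log2 values with their standard error (SE). Positions are on GRCm38.

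Of the 10 genes, 6 fell in the risk allele kidneys (the mean of G1 and G2, 4 libraries) relative to Control (3 libraries), 0 rose and 4 were not called. Those that fell were the pump subunit genes Atp6v0a4 and Atp6v1b1, the exchanger genes Slc4a1 and Slc26a4, and Aqp6 and Rhcg. Those not called were the pump subunit genes Atp6v1g3 and Atp6v0d2, the exchanger gene Slc4a9 and Foxi1. Across all genes tested, 18% fell and 19.3% rose in this comparison. The median log2 fold change was -0.79 over the 10 genes and 0.0028 over all genes tested. In 4 genes (Atp6v0a4, Slc4a1, Slc26a4 and Aqp6) every risk allele library lay below every Control library, as did 17.7% of all genes. Relative to wild type (single mutant), 6 fell and 0 rose, against 19.3% and 20.7% of all genes, and they were the same 6. In 7 genes every risk allele library lay below every wild type (single mutant) library, as did 18.4% of all genes. These 2 comparisons share the 4 risk allele libraries. Scaled by library totals alone, the median of all genes moved to 0.28 against Control and 0.29 relative to wild type (single mutant), 6036 rose and 1601 fell against Control (3441 and 3212 with TMM), 6226 rose and 1711 fell against wild type (single mutant) (3681 and 3440 with TMM), and 5 and 4 of the 10 genes fell. In whole kidney, fewer cells of a type and less RNA per cell cannot be told apart.

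**Figure D1:**
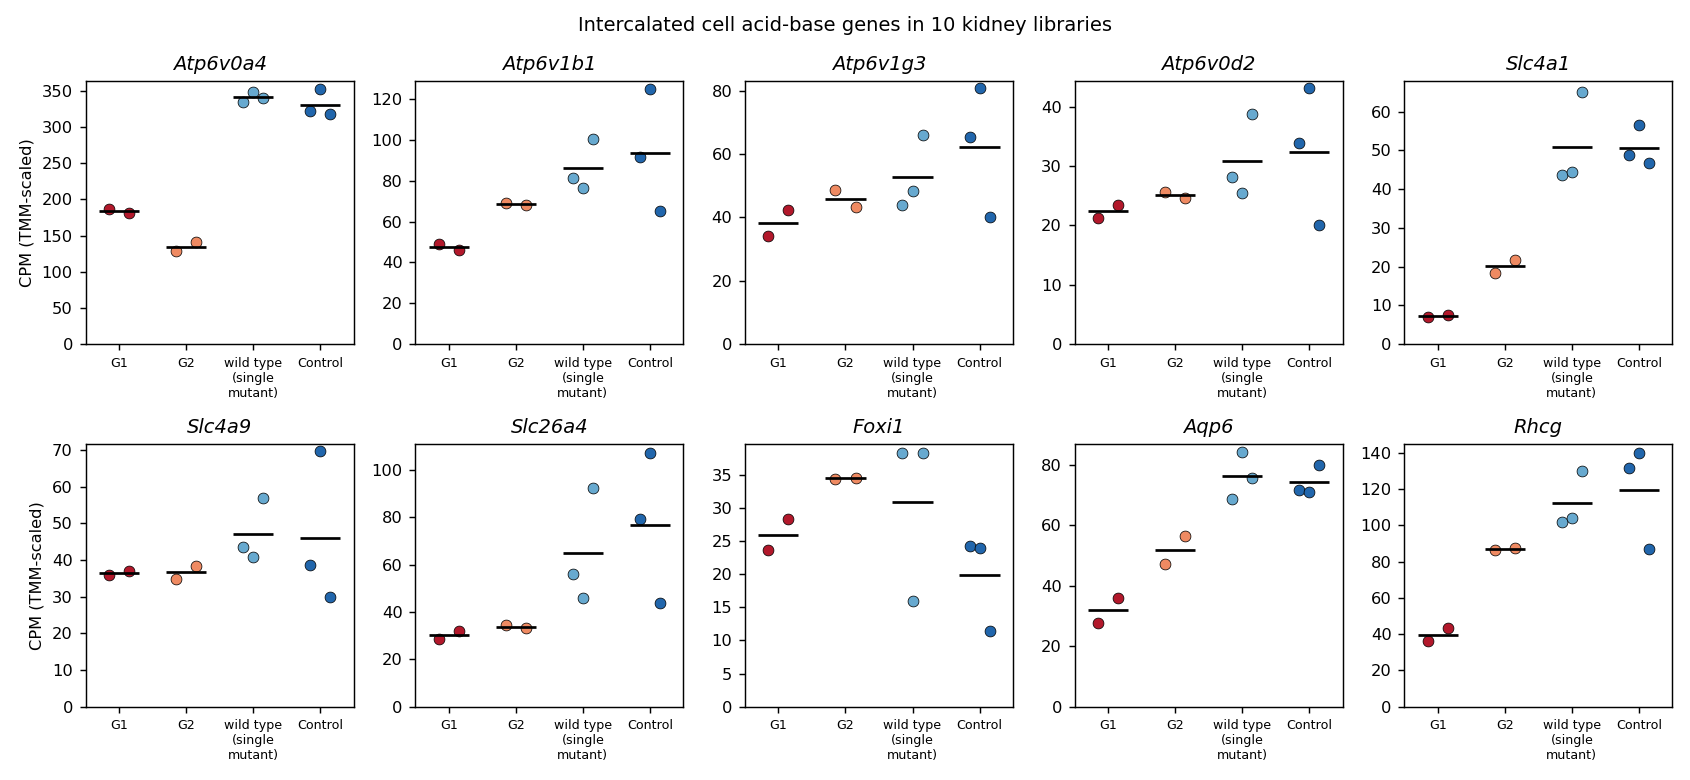
CPM on TMM-scaled library sizes (vertical axis, from 0) of the 10 genes in G1, G2, wild type (single mutant) and Control, with 1 point per library and a line at the group mean. Slc4a1, Atp6v0a4, Slc26a4 and Aqp6 lie lower in all 4 G1 and G2 libraries than in any of the other 6. Atp6v1b1, Atp6v1g3, Atp6v0d2, Slc4a9, Foxi1 and Rhcg overlap between them.

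Atp6v0a4 (ENSMUSG00000038600.11, chromosome 6, 38048483 to 38124586, minus strand) encodes the a4 subunit of the membrane sector, which in mouse is also found in the proximal tubule. It was at 186 and 181 CPM in G1, 128 and 141 in G2, 335, 349 and 341 in wild type (single mutant), and 322, 353 and 319 in Control. All 4 risk allele libraries lay below all 6 others, with no overlap, and the G2 libraries lay below the G1 libraries. The log2 fold change against Control was -1.07 ± 0.08 (adjusted p = 6.47e-05, edgeR quasi-likelihood with Benjamini-Hochberg correction), and against wild type (single mutant) it was -1.12 ± 0.08 (adjusted p = 5.08e-05, same test). Its spread within groups was small, with a coefficient of variation of 4.12% over the wild type (single mutant) and Control libraries, the lowest of the 10 genes. Exons of Atp6v0a4 overlap those of Tmem213 on the opposite strand and of D630045J12Rik on the same strand. Since no source used here says that strand was used in counting, reads in stretches shared with Tmem213 cannot be told apart. Reads in stretches shared with D630045J12Rik could not be told apart by strand in any case. Neither neighbour was called: the log2 fold change of Tmem213 was -0.07 ± 0.15 and that of D630045J12Rik 0.20 ± 0.16, both picked out after their values were seen because of this overlap. The proximal tubule list, 11 genes of bicarbonate reabsorption and ammonia production, moved the same way: its summed level was 5208 to 7050.2 CPM in the risk allele libraries and 14140.5 to 18516 CPM in the other 6. Its part in the Atp6v0a4 result was not tested.

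The other 3 pump subunits varied more between libraries. Atp6v1b1 (ENSMUSG00000006269.6, chromosome 6, 83742990 to 83758855, plus strand), which encodes the B1 subunit of the ATP-hydrolysing sector, was at 48.9 and 46.0 CPM in G1, 69.3 and 68.4 in G2, 81.5, 76.6 and 101 in wild type (single mutant), and 91.6, 125 and 65.0 in Control. The G1 libraries lay below every other library, and the G2 libraries overlapped with Control through Control replicate 3. Its log2 fold change was -0.72 ± 0.19 against Control and -0.59 ± 0.19 relative to wild type (single mutant), with adjusted p of 0.0191 and 0.0376 in edgeR quasi-likelihood with Benjamini-Hochberg correction. The first call was lost with libraries scaled by their totals alone, without G1 replicate 2 and without Control replicate 2, with adjusted p from 0.00202 to 0.114 over the 13 alternatives. The second was kept in 5 of 13 alternatives and was lost without any 1 of the 7 libraries compared.

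Atp6v1g3 (ENSMUSG00000026394.5, chromosome 1, 138273738 to 138289462, plus strand), for the G3 subunit of the stalk that joins the 2 sectors, was at 34.0 and 42.3 CPM in G1, 48.6 and 43.2 in G2, 43.8, 48.3 and 66.1 in wild type (single mutant), and 65.5, 80.8 and 40.0 in Control. The risk allele libraries overlapped with both other groups. Against Control its log2 fold change was -0.57 ± 0.23, with a 95% interval of -1.02 to -0.12 (adjusted p = 0.0819, edgeR quasi-likelihood). Atp6v0d2 (ENSMUSG00000028238.6, chromosome 4, 19876841 to 19922605, minus strand), for the d2 subunit of the membrane sector, which macrophages and osteoclasts also express, was at 21.3 and 23.5 CPM in G1, 25.6 and 24.6 in G2, 28.3, 25.5 and 38.7 in wild type (single mutant), and 33.9, 43.2 and 20.1 in Control. Control replicate 3 held the lowest value of all and the groups overlapped. The log2 fold change was -0.45 ± 0.24, with a 95% interval of -0.92 to 0.01 (adjusted p = 0.166, edgeR quasi-likelihood). Without Control replicate 3 both genes were called against Control, with log2 fold changes of -0.81 and -0.70. In that setting 8 of the 10 genes fell, beside 2451 of all 17797 genes tested. DESeq2 on all libraries also called Atp6v1g3, so that 7 fell, beside 3565 of all 17823 genes tested. Macrophage and osteoclast genes were higher in the same libraries: 18 of 20 rose, against 19.3% of all genes tested. Among them were the mannose receptor gene Mrc1 (2.53 ± 0.22) and the lysozyme gene Lyz2 (3.20 ± 0.28). The summed level of these macrophage and osteoclast genes was 1049.6 to 1569 CPM in the risk allele libraries and 303 to 421 CPM in the other 6. Their part in the level of Atp6v0d2 was not tested.

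Each intercalated cell subunit was set against its widely expressed counterpart within the same library, a ratio that does not depend on how libraries are scaled. The log2 ratio of Atp6v0a4 to Atp6v0a1 counts was 1.14 and 1.06 in G1, 0.93 and 1.20 in G2, 2.39, 2.39 and 2.27 in wild type (single mutant), and 2.20, 2.33 and 2.06 in Control. All 4 risk allele libraries lay below all 6 others, and G1 and G2 overlapped. The mean was 1.08 ± 0.12 in the risk allele libraries (SD, n = 4) and 2.27 ± 0.13 in the other libraries (SD, n = 6), a difference of -1.19. The exact two-sided permutation test gave p = 0.00952, the smallest that 4 against 6 libraries allow, and 0.0571 after Benjamini-Hochberg adjustment over the 6 ratios tested, so it did not pass the threshold. A ratio that alone reaches this p among the 6 cannot go lower after adjustment. Atp6v0a1 itself was not called against Control for both alleles together (0.04 ± 0.08), but its level differed between them. It was at 84.7 and 87.2 CPM in G1, above every other library. In G2 it was at 67.4 and 61.3 CPM, below every Control library, and in the other 6 at 63.7 to 76.2 CPM. The ratio thus reflects both genes, and Atp6v0a1, like Atp6v0a4, was lower in G2 than in G1.

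For the remaining 3 pairs the mean of both alleles differed by less from the other libraries. The log2 ratio of Atp6v1b1 to Atp6v1b2 was -3.03 and -2.85 in G1, -2.19 and -1.97 in G2, -2.64, -2.62 and -2.24 in wild type (single mutant), and -2.37, -2.11 and -2.90 in Control. G1 lay at the low end and G2 at the high end, with the other libraries mostly between them. It averaged -2.51 ± 0.51 in the risk allele libraries and -2.48 ± 0.29 in the other 6 (SD, n = 4 and 6, exact permutation p = 0.905). Atp6v1b2, the widely expressed B subunit gene, fell by itself, with a log2 fold change of -0.61 ± 0.10 against Control. The ratio of Atp6v0d2 to Atp6v0d1 averaged -2.40 ± 0.21 in the risk allele libraries and -2.33 ± 0.44 in the other 6 (exact permutation p = 0.771), and that of Atp6v1g3 to Atp6v1g1 averaged -1.90 ± 0.37 in the risk allele libraries and -1.62 ± 0.35 in the other 6 (exact permutation p = 0.276). The difference between risk allele and other libraries was -0.03 for the B pair, -0.08 for the d pair and -0.27 for the G pair, each smaller than the SD among the risk allele libraries. Whether the shift of the a pair differs from that of the other pairs was not tested. Of the 18 widely expressed pump and accessory subunit genes, 8 fell, 1 rose and 9 were not called against Control, with a median log2 fold change of -0.22. The shares over all genes tested were 18% that fell and 19.3% that rose. The catalytic A subunit gene Atp6v1a fell (-0.89 ± 0.10), as did Atp6v1d (-0.50 ± 0.09), for a subunit of the central rotor, and Atp6v0e2 (-0.61 ± 0.11), for a small membrane subunit.

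**Figure D2:**
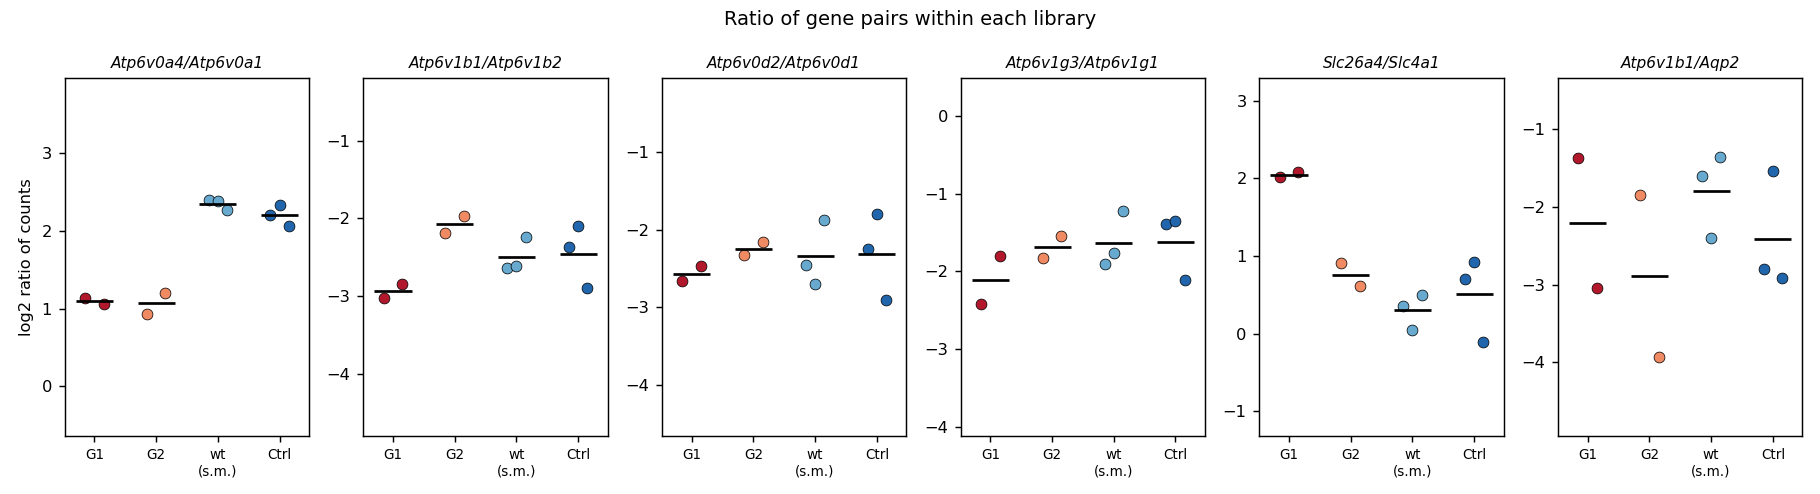
Log2 ratio of the raw counts of 6 gene pairs within each library (vertical axes, each spanning the same range), in G1, G2, wild type (single mutant), shown as wt (s.m.), and Control, shown as Ctrl. Points are libraries and lines are group means, and the ratio of Atp6v0a4 to Atp6v0a1 is lower in all 4 risk allele libraries than in the other 6.

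Of the anion exchangers, Slc4a1 (ENSMUSG00000006574.14, chromosome 11, 102348824 to 102366203, minus strand) differed most. It was at 7.02 and 7.53 CPM in G1, 18.3 and 21.8 in G2, 43.5, 44.4 and 65.0 in wild type (single mutant), and 48.7, 56.6 and 46.8 in Control. The groups did not overlap: both G1 libraries lay below both G2 libraries, and these lay below all 6 others. It had a log2 fold change of -2.07 ± 0.16 against Control and -2.08 ± 0.16 relative to wild type (single mutant) (adjusted p = 7.05e-05 and 6.9e-05, edgeR quasi-likelihood with Benjamini-Hochberg correction). Slc4a1 also encodes the band 3 protein of red cells, and several erythroid genes were lower in the same libraries. Of 14 genes on the erythroid list, 9 passed the filter, and 6 of them fell and 1 rose, against 18% and 19.3% of all genes tested. The gene that rose was the membrane skeleton gene Epb42 (log2 fold change 2.45 ± 0.67), at 1.34 to 1.95 CPM in the risk allele libraries and 0.102 to 0.876 CPM in the other 6. The erythroid heme synthesis gene Alas2 was at 0.393 and 0.428 CPM in G1, 1.91 and 3.98 in G2, 9.95, 14.1 and 16.3 in wild type (single mutant), and 26.7, 29.4 and 18.3 in Control. The summed level of the 13 list genes in the tables was 26.6 to 268 CPM in the risk allele libraries, 323 to 547 CPM in wild type (single mutant) and 592 to 1032 CPM in Control. Hemoglobin genes make up most of that sum and can share reads with their copies. The red cell membrane gene Rhag, which defines erythroid cells, was at or near 0 in every library, at most 0.149 CPM, as was Kel, which averaged 0.153 CPM in the risk allele libraries and 0.0536 CPM in the other 6. The ankyrin gene Ank1 was not called and averaged 0.697 CPM in the risk allele libraries and 0.396 CPM in the other 6. Between wild type (single mutant) and Control the log2 fold change was -0.88 for Alas2 and 0.01 for Slc4a1, neither called. The part of red cell RNA in the Slc4a1 result was not tested, and kidney and erythroid transcripts of Slc4a1 are not separated in these counts.

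Slc26a4 (ENSMUSG00000020651.7, chromosome 12, 31519827 to 31559969, minus strand), for pendrin, was at 28.5 and 31.8 CPM in G1, 34.3 and 33.3 in G2, 56.0, 46.1 and 92.3 in wild type (single mutant), and 79.3, 107 and 43.6 in Control. The 4 risk allele libraries held nearly the same level and lay below all 6 others, which spread widely, at 46.1 to 92.3 CPM in wild type (single mutant) and at 43.6 to 107 CPM in Control. The log2 fold change was -1.26 ± 0.30 against Control and -1.02 ± 0.30 relative to wild type (single mutant), with adjusted p of 0.0113 and 0.0261 in edgeR quasi-likelihood with Benjamini-Hochberg correction. The call relative to wild type (single mutant) was lost in 6 of 13 alternatives: with library totals alone, without any 1 of the 4 risk allele libraries, or without wild type (single mutant) replicate 3, with adjusted p up to 0.0982. Slc4a9 (ENSMUSG00000024485.14, chromosome 18, 36528147 to 36556273, plus strand), for AE4, was at 36.0 and 37.1 CPM in G1, 34.9 and 38.4 in G2, 43.4, 40.8 and 57.0 in wild type (single mutant), and 38.7, 69.8 and 29.9 in Control. The risk allele libraries lay below all 3 wild type (single mutant) libraries and overlapped with Control. Against Control its log2 fold change was -0.33 ± 0.26, with a 95% interval of -0.83 to 0.17 (adjusted p = 0.335, edgeR quasi-likelihood). Over the 13 alternatives this fold change ran from -0.57 to 0.09, so its sign was not the same in all, and none called the gene.

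The pair Slc26a4 and Slc4a1 sets a gene of base-secreting cells against one of acid-secreting cells. Its log2 ratio was 2.02 and 2.08 in G1, 0.91 and 0.61 in G2, 0.36, 0.05 and 0.51 in wild type (single mutant), and 0.70, 0.92 and -0.10 in Control. Both G1 libraries stood above all others, and G2 overlapped with Control. The mean was 1.40 ± 0.75 in the risk allele libraries and 0.41 ± 0.39 in the other 6 (SD, n = 4 and 6, exact two-sided permutation p = 0.0476, adjusted p = 0.143 over the 6 ratios), which did not pass after adjustment. The red cell share of Slc4a1 enters this ratio and was not tested.

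Foxi1 (ENSMUSG00000047861.2, chromosome 11, 34204338 to 34208089, minus strand) was not among the genes that fell. It was at 23.6 and 28.3 CPM in G1, 34.4 and 34.5 in G2, 38.3, 16.0 and 38.3 in wild type (single mutant), and 24.3, 24.0 and 11.5 in Control. The risk allele libraries lay within the range of wild type (single mutant), and 2 of the 3 Control libraries lay close to G1. The log2 fold change of Foxi1 was 0.59 ± 0.34 against Control, with a 95% interval of -0.08 to 1.25 (adjusted p = 0.204), and -0.05 ± 0.33 relative to wild type (single mutant), with a 95% interval of -0.70 to 0.61 (adjusted p = 0.926, edgeR quasi-likelihood with Benjamini-Hochberg correction). The sign against wild type (single mutant) turned in some alternatives, with values from -0.36 to 0.23, and no alternative called the gene. Of the 10 tested genes of 11 that govern collecting duct cell fate, 2 rose and 1 fell against Control, shares near or below those of all genes (19.3% rose and 18% fell): Adam10, a protease that cleaves Notch receptors (0.70 ± 0.11), and Jag1, a Notch ligand (0.80 ± 0.22), rose, and the transcription factor gene Ovol1 fell (-0.92 ± 0.30). The call of Notch2, a receptor of Jag1, missed the threshold at 0.35 ± 0.12.

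The 250 bases before the RefSeq start site (GRCm38.p6) were available for 7 of the 10 genes and were searched for the forkhead core letters TAAACA and their reverse complement TGTTTA, counting a window once if it held either on the gene's strand. No window of the 7 held both. The letters occurred in 1 of the 7 windows, that of Atp6v1b1, and in 12.03% of all 32851 windows of this length. Windows are printed for 3 genes that fell, as the sequence upstream of the pump subunit genes and of pendrin, 5′ to 3′ on the strand of the gene, with the forkhead letters in capitals.
Atp6v1b1, chr6:83742767-83743016 (plus strand): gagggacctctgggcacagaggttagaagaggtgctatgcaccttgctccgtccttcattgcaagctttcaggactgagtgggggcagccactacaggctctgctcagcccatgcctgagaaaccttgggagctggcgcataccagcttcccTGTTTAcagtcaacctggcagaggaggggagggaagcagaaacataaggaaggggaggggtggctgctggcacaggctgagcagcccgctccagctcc
Atp6v0a4, chr6:38124587-38124836 (minus strand): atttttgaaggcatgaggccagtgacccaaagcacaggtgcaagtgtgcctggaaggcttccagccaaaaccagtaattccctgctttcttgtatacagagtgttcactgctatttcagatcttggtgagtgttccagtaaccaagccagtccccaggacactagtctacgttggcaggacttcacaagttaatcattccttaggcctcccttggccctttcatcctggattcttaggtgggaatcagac
Slc26a4, chr12:31559985-31560234 (minus strand): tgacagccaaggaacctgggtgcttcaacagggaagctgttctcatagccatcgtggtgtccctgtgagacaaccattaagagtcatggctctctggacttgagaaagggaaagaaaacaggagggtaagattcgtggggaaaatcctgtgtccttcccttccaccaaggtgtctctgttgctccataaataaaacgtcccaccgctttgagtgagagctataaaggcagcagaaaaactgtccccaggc
In Atp6v1b1 the letters TGTTTA begin 98 bases before the start site. A match of 6 letters is a description of the sequence, and the absence of a match says only that these letters are not in the window.

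Aqp6 (ENSMUSG00000043144.5, chromosome 15, 99601400 to 99605477, plus strand), a water and anion channel in vesicles of acid-secreting cells, was at 27.8 and 35.9 CPM in G1, 47.2 and 56.5 in G2, 68.7, 84.1 and 75.7 in wild type (single mutant), and 71.6, 70.9 and 79.8 in Control. All 4 risk allele libraries lay below all 6 others, and both G1 libraries lay below both G2 libraries. Aqp6 had a log2 fold change of -0.87 ± 0.12 against Control and -0.91 ± 0.12 relative to wild type (single mutant) (adjusted p = 0.000755 and 0.000565, edgeR quasi-likelihood with Benjamini-Hochberg correction). Rhcg (ENSMUSG00000030549.5, chromosome 7, 79593363 to 79617657, minus strand), a channel for ammonia that principal and connecting tubule cells also carry, was at 36.0 and 43.3 CPM in G1, 86.4 and 87.8 in G2, 102, 104 and 130.2 in wild type (single mutant), and 132, 139.8 and 86.7 in Control. Both G1 libraries lay below every other library, while the G2 libraries lay close to Control replicate 3. For Rhcg the log2 fold change was -1.02 ± 0.17 against Control and -0.93 ± 0.17 relative to wild type (single mutant), and the adjusted p were 0.00187 and 0.00255 by edgeR quasi-likelihood. Both genes kept these calls in all 13 alternatives of each comparison, as did Atp6v0a4 and Slc4a1.

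**Figure D3:**
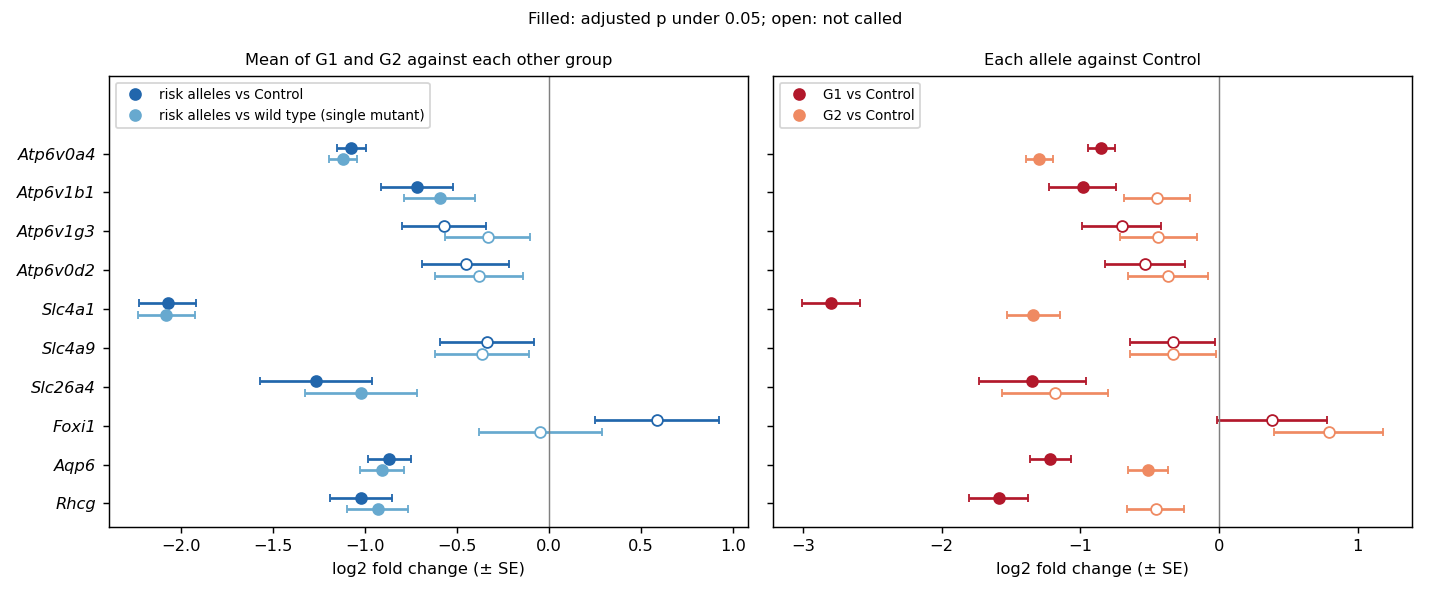
Log2 fold changes (points) with their standard errors (bars) of the 10 genes, for both alleles together against Control and wild type (single mutant) on the left, and for G1 and G2 each against Control on the right. Filled points have an adjusted p under 0.05, and Slc4a1 has the lowest values in all 4 sets, at -2.07, -2.08, -2.80 and -1.34.

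The 2 alleles were next compared with Control one at a time, which asks whether both show the same genes. In G1, 6 of the 10 genes fell and 0 rose, against 17.9% and 19.5% of all genes tested, with a median of -0.92. In G2, 3 fell and 0 rose, against 8.86% and 12.7%, with a median of -0.45. Every library lay below every Control library in 6 genes in G1, against 32% of all genes, and in 4 genes in G2, against 22.6%. The G2 genes were Atp6v0a4, Slc4a1 and Aqp6, which also fell in G1, where Atp6v1b1, Slc26a4 and Rhcg fell as well. A call in G1 alone does not show that the alleles differ. Atp6v1b1 had -0.98 in G1 and -0.45 in G2, and G2 against G1 gave 0.54, not called. Slc26a4 had nearly the same value in G1 (-1.35 ± 0.38) and in G2 (-1.18 ± 0.38, adjusted p = 0.0559, edgeR quasi-likelihood), and G2 against G1 gave 0.16 ± 0.40, with a 95% interval of -0.63 to 0.95. In G1 the calls of Atp6v0a4, Slc4a1, Aqp6 and Rhcg held in all 11 alternatives. That of Atp6v1b1 was lost with library totals alone and without G1 replicate 1 or 2, and that of Slc26a4 in those settings and without Control replicate 1 or 2. In G2 those of Atp6v0a4 and Slc4a1 held in all 11, while that of Aqp6 held in 5 and was lost without G2 replicate 1 or any 1 Control library, with library totals alone and with these groups alone in the fit. Slc26a4 was called in G2 in 4 of 11 alternatives: with RLE size factors, without the low-count filter, with DESeq2 and without Control replicate 3. Without Control replicate 3, 5 genes fell in G2, Atp6v1b1, Slc26a4 and Rhcg now among them, beside 1126 of all 17797 genes tested. With library totals alone, the median of all genes moved to 0.27 in G1 and 0.29 in G2, 5684 genes rose and 1768 fell in G1 (3472 and 3184 with TMM), and 4218 rose and 727 fell in G2 (2264 and 1579 with TMM).

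The direct comparison of G2 with G1 tests whether the alleles differ. Here 3 of the 10 genes were higher in G2, against 3.84% of all genes that rose, and 1 was lower, against 2.88% that fell. Slc4a1 was at 20.0 ± 2.47 CPM in G2 and 7.28 ± 0.358 CPM in G1 (SD, n = 2 each), a log2 fold change of 1.46 ± 0.21. Rhcg was at 87.1 ± 0.963 CPM in G2 and 39.7 ± 5.18 CPM in G1 (1.13 ± 0.22). Aqp6 was at 51.9 ± 6.58 CPM in G2 and 31.8 ± 5.71 CPM in G1 (0.70 ± 0.16). Atp6v0a4 went the other way, with 135 ± 8.80 CPM in G2 and 184 ± 3.48 CPM in G1 (-0.45 ± 0.10). The adjusted p were 0.0113 for Slc4a1, 0.0259 for Rhcg, 0.0358 for Aqp6 and 0.038 for Atp6v0a4 in edgeR quasi-likelihood with Benjamini-Hochberg correction. Each group held 2 libraries. The calls of Rhcg, Aqp6 and Atp6v0a4 were lost without any 1 of the 4 libraries, and that of Slc4a1 without G1 replicate 1, G1 replicate 2 or G2 replicate 2, with adjusted p up to 0.0851 for Slc4a1 and 0.221 for Aqp6. Erythroid genes were higher in G2 as well, with 4 of 9 called, and their summed level was 133 to 268 CPM in G2 and 26.6 to 27.7 CPM in G1. Their part in the Slc4a1 difference was not tested. Other lists shifted too. In the distal convoluted and connecting tubule list 3 of 10 genes rose and 0 fell in G2 against G1, with a median of 0.81. In the proximal tubule list 4 of 11 rose and 1 fell, with a median of 0.04. Of the 12 principal cell genes 0 rose and 0 fell, with a median of 1.08. The median over the 10 acid-base genes was 0.34. The part of these shifts in the Rhcg and Aqp6 differences was not tested.

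Between wild type (single mutant) and Control none of the 10 genes was called. There edgeR called 0% of all 17823 genes in either direction, with 724 at an unadjusted p under 0.05, and DESeq2 called 2 that rose and 12 that fell. The largest difference among the 10 was that of Foxi1, with 30.9 ± 12.9 CPM in wild type (single mutant) and 19.9 ± 7.32 CPM in Control (SD, n = 3 each), a log2 fold change of 0.63 ± 0.36 whose 95% interval ran from -0.07 to 1.34. Within these 2 groups the genes differed in their spread. In Control the highest library was 2.46 times the lowest for Slc26a4, 2.33 times for Slc4a9, 2.15 times for Atp6v0d2 and 2.12 times for Foxi1, but 1.11 times for Atp6v0a4 and 1.13 times for Aqp6. Control replicate 3 was the lowest Control library for 9 of the 10 genes and the highest for Aqp6. It was also the lowest in the summed level of distal convoluted and connecting tubule genes. That sum was 2998 CPM, against 4431 and 5141 CPM in Control replicates 1 and 2. In wild type (single mutant) it was 3454, 3628 and 4982 CPM in replicates 1, 2 and 3. By chi-square per gene, Control replicate 3 was nearest to wild type (single mutant) replicates 2 (26.2) and 1 (38.0). Against Control replicates 1 and 2 its chi-square per gene was 58.5 and 114. The part of such differences between kidney samples in the results was not tested.

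Levels of different genes were compared per length, as CPM per kilobase of annotated exon. In the risk allele libraries the order of means ran Atp6v0a4 (32.0), Rhcg (28.4), Atp6v1g3 (22.3), Aqp6 (17.3), Atp6v1b1 (13.3), Foxi1 (12.8), Slc26a4 (10.3), Atp6v0d2 (8.74), Slc4a9 (5.72) and Slc4a1 (2.79). In the other 6 libraries it ran Atp6v0a4 (67.6), Rhcg (51.9), Aqp6 (31.0), Atp6v1g3 (30.4), Slc26a4 (22.8), Atp6v1b1 (20.6), Atp6v0d2 (11.6), Foxi1 (10.8), Slc4a1 (10.4) and Slc4a9 (7.28). The risk allele order averages G1 and G2, which differed: in G1 Atp6v0a4 (36.9) was followed by Atp6v1g3 (20.2) and Rhcg (17.8), and in G2 Rhcg (39.0) was followed by Atp6v0a4 (27.1) and Atp6v1g3 (24.3). In the risk allele libraries each gene's range overlapped that of the next gene in the order, down to Atp6v0d2, and Atp6v0d2, Slc4a9 and Slc4a1 were separated. In the other 6, Atp6v0a4 lay above Rhcg, and Rhcg above Aqp6, without overlap, and from Aqp6 down every gene's range overlapped that of the next. Slc4a1 was last in the risk allele libraries, at 2.79 CPM per kilobase, and stood above Slc4a9 in the others, at 10.4.

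A further list holds 22 genes of intercalated cells or of acid and base transport in them, all of which were tested. Against Control, 9 fell, 1 rose and 12 were not called, with a median log2 fold change of -0.36. Of all genes tested, 18% fell and 19.3% rose. The carbonic anhydrase gene Car12 was at 199.7 and 155 CPM in G1, 153 and 212 in G2, 417, 330.0 and 408 in wild type (single mutant), and 359, 373 and 354 in Control, with no overlap between risk allele and other libraries (-1.01 ± 0.14, adjusted p = 0.000894, edgeR quasi-likelihood). The alkali-sensing receptor gene Insrr fell (-1.33 ± 0.21), as did the pump subunit gene Atp6v1c2 (-1.04 ± 0.19) and Oxgr1 (-1.29 ± 0.24), the receptor for alpha-ketoglutarate on pendrin-bearing cells. Car2, the abundant cytosolic carbonic anhydrase of these cells, was not called at -0.01 ± 0.21, nor was the growth factor receptor gene Kit at -0.17 ± 0.13. The gene that rose, Car15, is a membrane-bound carbonic anhydrase (1.25 ± 0.33). Car2, Kit and Car15 were picked out after their values were seen.

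Principal cells, the neighbours of intercalated cells, gave 2 falls and 0 rises among 12 genes, a share near the 18% of all genes that fell, with a median of -0.35. One allele at a time against Control, 5 fell in G1 with a median of -0.82, and 1 fell in G2 with a median of 0.06. Of all genes, 17.9% fell in G1 and 8.86% in G2. The sodium channel subunit gene Scnn1a (-0.71 ± 0.13) and the potassium channel gene Kcnj1 (-0.82 ± 0.19) fell, and the water channel gene Aqp3 was not called (-0.82 ± 0.30, adjusted p = 0.0575, edgeR quasi-likelihood test). Aqp2, the vasopressin-regulated water channel gene, was at 127 and 381 CPM in G1, 249 and 1046 in G2, 248, 406 and 258 in wild type (single mutant), and 639.6, 364 and 489.7 in Control, and it varied more within groups than between them. The log2 ratio of Atp6v1b1 to Aqp2 averaged -2.55 ± 1.16 in the risk allele libraries and -2.10 ± 0.69 in the other 6 (SD, n = 4 and 6, exact two-sided permutation p = 0.419). The summed level of the 12 principal cell genes was 574 and 1034 CPM in G1 and 1053 and 2457 CPM in G2. In the other 6 it was 1140 to 1833 CPM. The part of this spread within the allele groups in the results was not tested. In the distal convoluted and connecting tubule list 9 fell, 0 rose and 1 was not called, with a median of -1.54. Its members include Kl, the co-receptor of a phosphate-regulating hormone (-1.80 ± 0.13), the thiazide-sensitive salt transporter gene Slc12a3 (-2.33 ± 0.23) and the calcium-binding protein gene Pvalb (-3.33 ± 0.35). Of the 11 genes of bicarbonate reabsorption and ammonia production in the proximal tubule 9 fell, 0 rose and 2 were not called, with a median of -1.14. The apical sodium/proton exchanger gene Slc9a3 fell (-1.76 ± 0.21), as did the basolateral bicarbonate exit gene Slc4a4 (-1.09 ± 0.14). No list was tested against another.

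**Figure D4:**
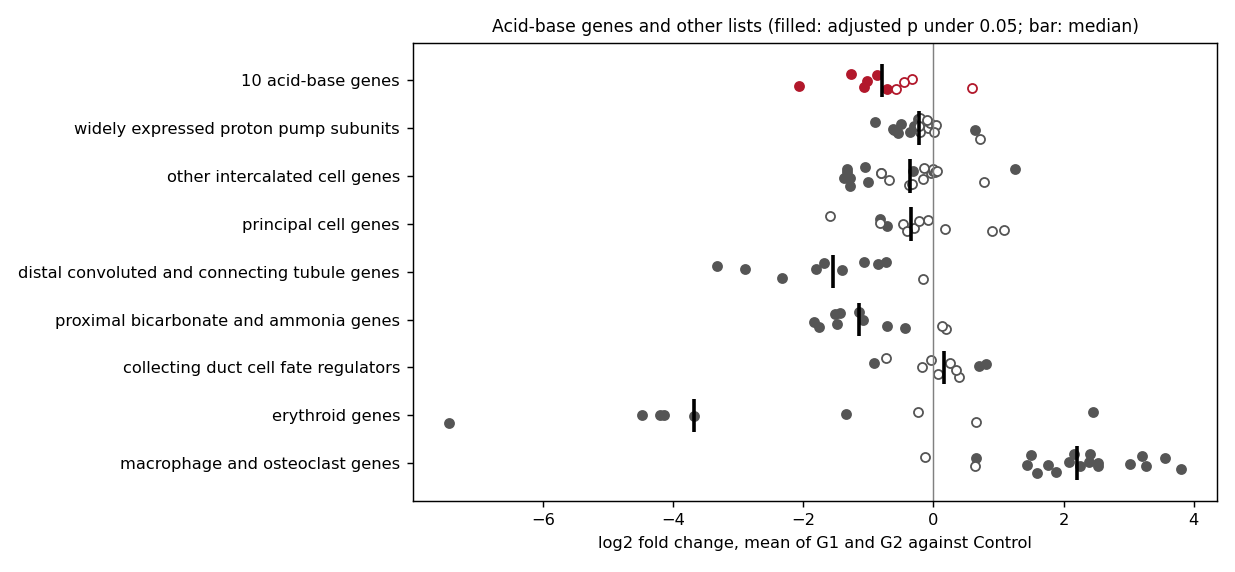
Log2 fold change of the risk alleles, G1 and G2 averaged, relative to Control (horizontal axis) for the 10 acid-base genes and for 8 other lists, with 1 point per tested gene, filled where the adjusted p was under 0.05, and a bar at the list's median. The medians are -0.79 for the acid-base genes, -0.22 for widely expressed pump subunits, -0.35 for principal cell genes and -1.54 for distal convoluted and connecting tubule genes, and points are spread vertically at random for legibility.

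Genes with the most similar pattern were ranked by the mean absolute difference in log2(CPM + 0.5) over the 10 libraries, after centring each gene on its own mean, among the 14355 tested genes that averaged 1 CPM or more. The nearest to Atp6v0a4 were Dnajc13 (0.10) and Ptgfr (0.11), with the difference in parentheses. The nearest to Slc26a4 were Iyd (0.12), Gsta3 (0.14) and Vstm2a (0.15). Iyd, which encodes an enzyme that removes iodine from iodotyrosines, was at 27.2 and 23.1 CPM in G1, 32.5 and 28.5 in G2, 52.4, 43.8 and 83.1 in wild type (single mutant), and 69.9, 75.6 and 39.2 in Control, with the highest values in wild type (single mutant) replicate 3 and Control replicates 1 and 2, as for Slc26a4. For Foxi1 they were Fam222a (0.17), Zfp493 (0.20) and Tspan2 (0.21), at larger differences. These are descriptions over 10 libraries that share the split between risk allele and other kidneys.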

How the data were processed

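Per the labels' protocols, polyadenylated RNA of frozen mouse kidneys was sequenced as single-end reads of 100 bases. STAR 2.4.1d, HTSeq 0.6.1, Trim Galore, FastQC, CASAVA 1.8.2 and the build GRCm38 are named, per the submitters' processing notes. How each tool was set, which annotation it used and whether strand was counted were not given in the sources used here. Raw counts per Ensembl ID were deposited by the authors, 1 table per library, with 46517 IDs. Symbols were taken from GENCODE M21 on GRCm38, which matched 46005 IDs; 512 had no match. No pair of libraries agreed within counting noise. The lowest chi-square per gene was 26.2, for wild type (single mutant) replicate 2 and Control replicate 3.

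Counts were fitted in edgeR 4.0.16 (R 4.3.3) with TMM, a low-count filter (filterByExpr, minimum count 10) and 1 mean per genotype label in a single model of the 10 libraries, so that groups share an estimate of spread. The quasi-likelihood test was adjusted by Benjamini-Hochberg over 17823 genes. Intervals of fold changes are 1.96 SE to each side. They use a normal quantile and are narrower than 95% intervals of the quasi-likelihood test, which has few degrees of freedom. Log2 ratios of 2 genes within a library had 0.5 added to each count, and were compared between 4 risk allele and 6 other libraries by exact two-sided permutation. The procedure was tested on simulated data with spreads taken from these libraries, in which few genes changed, as many up as down. That setting does not test the scaling of libraries where many genes change, as here.

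The 10 genes and all lists were chosen with earlier results of these data known. Named were the 10 genes, the partners of each ratio, up to 4 genes per list with the lowest p for risk alleles against Control, and the 3 genes nearest in pattern to Foxi1, Atp6v0a4 and Slc26a4, besides those said to be picked out later. Some genes that this rule or the marker lists hold are not reported here. Alternatives were other size factors, library totals alone, no low-count filter, DESeq2 1.42.0, limma voom (limma 3.58.1), the compared groups alone, each library left out, and 5 in place of 0.5 in the ratios. Promoter windows are from RefSeq (GRCm38.p6).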

Additional observations from a re-analysis of the deposited data

Results flagged for a closer look

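For 4 of the 10 genes the test of G2 against G1, which compares the alleles' effects against Control, passed the threshold. Of all genes tested, 3.84% rose and 2.88% fell in that test. In it 3 of 10 distal convoluted and connecting tubule genes rose and 0 fell. Of 11 proximal tubule genes 4 rose and 1 fell. The log2 fold change of G2 against G1 was 1.46 for Slc4a1, 1.13 for Rhcg and 0.70 for Aqp6, so that these were higher in G2, and -0.45 for Atp6v0a4, which was lower in G2. The calls of Rhcg, Aqp6 and Atp6v0a4 were lost without any 1 of the 4 libraries, and that of Slc4a1 without 3 of the 4 in turn.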

How the results depend on the processing

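No paired analysis was possible because the labels give no replicate numbers, and those used here follow accession order. Against Control, 5 to 8 of the 10 genes fell in the 13 alternatives for both alleles together and 4 to 8 in the 11 for G1. Relative to wild type (single mutant) 4 to 6 fell in 13, and 0 of the 10 rose in any of these. Over all 17050 to 31389 genes tested, the numbers that fell were 1601 to 3565, 1268 to 3569 and 1711 to 3781 in the same order. Leaving out 1 library at a time, 2 to 5 of the 10 genes fell in G2 against Control, beside 797 to 1226 of all genes. In G2 against G1, 0 fell and 0 to 1 rose with 1 library left out. In that comparison 0 fell without the low-count filter and 0 with these 2 groups alone in the fit. With 1 library left out, the difference in log2 ratio ran from -0.21 to 0.14 for Atp6v1b1 to Atp6v1b2, from -0.19 to 0.031 for Atp6v0d2 to Atp6v0d1 and from -0.84 to 0.015 for Atp6v1b1 to Aqp2, so that their signs turned, and from -1.23 to -1.14 for Atp6v0a4 to Atp6v0a1 and from -0.39 (without G2 replicate 2) to -0.10 (without G1 replicate 1) for Atp6v1g3 to Atp6v1g1, where it was -0.27 with all libraries. Over all genes, settings other than library totals also moved some counts by more than 1.5 times. In G2 against G1, where 684 rose and 514 fell, DESeq2 gave 1222 and 1277, limma voom 830 that fell, the 2 groups alone 451 that rose, and leaving out 1 library 11 to 425 that rose and, in 3 of the 4 cases, 11 to 46 that fell. In G2 against Control (2264 and 1579) 962 fell with the compared groups alone, and 1173 rose and 797 fell without G2 replicate 1. In G1 against Control (3472 and 3184) 2278 rose and 1834 fell without G1 replicate 1, and 2130 and 1268 without G1 replicate 2, which left 2130 that fell for both alleles against Control. In wild type (single mutant) against Control 4 fell without the low-count filter, and at most 1 rose and 1 fell with a library left out. The causes were not tested. Each allele group held 2 libraries, and whether deeper sequencing would change these results was not tested.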
